A study of Mus musculus with 4 samples.

Results

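The progesterone receptor gene Pgr and 9 genes that respond to or act with it in the uterus were followed in endometriotic lesions, which are implants of endometrium that grow elsewhere in the body, from mice on 2 diets. The genes were Pgr, Klf9, Ihh, Areg, Fkbp5, Zbtb16, Cyp26a1, Gata2, Errfi1 and Calca, and every probe set annotated to exactly 1 of these symbols was taken. This gave 22 probe sets for 8 of the 10 genes, out of 34945 probe sets with a single symbol for 18193 genes. Areg and Calca had no probe set annotated to that symbol alone in the annotation used here and were not analysed. RNA of lesions from mice fed a high-fat diet (2 arrays) and from mice fed a casein diet, which the labels name as the control (2 arrays), was hybridised to Affymetrix 3′ expression arrays. All animals carried lesions, and the title calls the model immunocompetent. The mouse strain, age, cycle stage, hormone treatment, length of feeding and the number of animals or lesions behind an array are stated neither in the labels nor in the file. The p-values therefore measure only the spread between these samples, which may be technical.

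Progesterone acts in the uterus mainly through its nuclear receptor, a transcription factor that is held ready for the hormone by chaperones of the HSP90 system. In the mouse, the receptor in the epithelium induces Ihh, a secreted signal that stromal cells receive through Ptch1, and the stromal factors Nr2f2 and Hand2 act downstream and restrain estrogen-driven growth of the epithelium. Endometriosis is widely described as a disease with a reduced response to progesterone, so receptor and targets are a common readout of lesions.

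The promoter windows of Pgr and Cyp26a1 are shown because Pgr was the receptor itself and separated the diets, and Cyp26a1 varied most between arrays. Each window runs from 250 bases before to 50 bases after the start of the gene, from RefSeq (GRCm38.p6). The Pgr window is on the + strand at chr9:8899583-8899882, with a GC box in capitals, and that of Cyp26a1 is on the + strand at chr19:37697558-37697857, with a direct repeat in capitals.
Pgr: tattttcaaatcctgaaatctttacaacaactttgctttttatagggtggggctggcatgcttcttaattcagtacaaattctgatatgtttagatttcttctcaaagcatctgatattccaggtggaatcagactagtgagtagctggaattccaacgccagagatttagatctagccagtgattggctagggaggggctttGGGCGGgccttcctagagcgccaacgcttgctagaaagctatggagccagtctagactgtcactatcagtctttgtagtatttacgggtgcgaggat
Cyp26a1: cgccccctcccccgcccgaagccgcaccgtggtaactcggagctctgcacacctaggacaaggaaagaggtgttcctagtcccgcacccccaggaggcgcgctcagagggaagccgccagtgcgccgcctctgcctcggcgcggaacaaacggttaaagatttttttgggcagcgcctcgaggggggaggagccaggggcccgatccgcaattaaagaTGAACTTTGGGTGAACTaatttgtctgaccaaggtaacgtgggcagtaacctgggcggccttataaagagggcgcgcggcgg
The GC box, GGGCGG on either strand, is a common binding sequence of Krüppel-like factors, the family of Klf9, and was present in 8 of 11 windows of these genes (7 of 9 genes with a window, Areg and Calca included) and in 35.7% of all 32851 windows. In Pgr it began 47 bases before the start, and the Klf9 window held none. The direct repeat in Cyp26a1, TGAACT, 5 bases and TGAACT again on either strand, has the form of a retinoic acid response element, began 32 bases before the start and occurred in 0.0244% of all windows. The steroid receptor hexamer, TGTTCT on either strand, was in 0 of the 11 windows and in 19% of all windows. Its inverted repeat, AGAACA and TGTTCT with 3 bases between, was likewise in 0 of the 11 and in 0.00913% of all. The GC box and the direct repeat were chosen after the windows were seen, a match describes letters only, and a lack of a match says only that these letters are not in this window.

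Every array had a median intensity between 55.1 and 56.5. The test covered 12797 genes whose geometric mean intensity, from the mean of the log2 values, reached 33.9. All 8 genes passed this filter through their brightest probe set, as did 18 of their 22 probe sets. All 7 endometrial epithelium markers and all 7 stroma markers examined passed the filter, which is set on the mean of the 4 arrays, and most of them mark epithelium or connective tissue of other organs as well. The uterine patterning gene Hoxa10 had intensities of 1886 and 1521 on the high-fat diet and 647 and 1547 on the casein diet. Markers of other tissues were uneven between arrays. The summed intensity of 7 gastric mucosa markers was 336 and 351 in high-fat diet replicates 1 and 2, against 64938 and 9897 in casein diet replicates 1 and 2. The summed intensity of 7 skeletal muscle markers was 23993 and 731 on the high-fat diet and 595 and 851 on the casein diet. Casein diet replicate 1, which had the highest gastric sum, and high-fat diet replicate 1, which held the muscle signal, therefore stand apart. Values with an array left out are given beside the results that they move.

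Pgr itself and Klf9, a zinc-finger factor that partners the receptor in the mouse uterus, were both lower on the high-fat diet by about the same amount. Pgr was 0.765 and Klf9 0.754 of the casein diet level, with little spread within either diet. The other 6 genes overlapped between the diets. Errfi1 stayed within a narrow range, and the brightest probe set of Fkbp5 was low in casein diet replicate 1. Ihh, Zbtb16, Gata2 and Cyp26a1 varied between arrays of the same diet. In limma's test, with Benjamini-Hochberg adjustment over all 12797 genes, none of the 8 passed at 0.05 (lowest adjusted p of the 8 genes = 0.863), and 0% of all tested genes passed. At an unadjusted p under 0.05 there were 2 of the 8 (Pgr and Klf9), where 4.97% of all genes reached it. Both arrays of one diet lay apart from both of the other for 2 of the 8, all lower, against 36% of all genes in either direction (19.3% lower and 16.6% higher). The members' share is thus near the background.

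**Figure D1:**
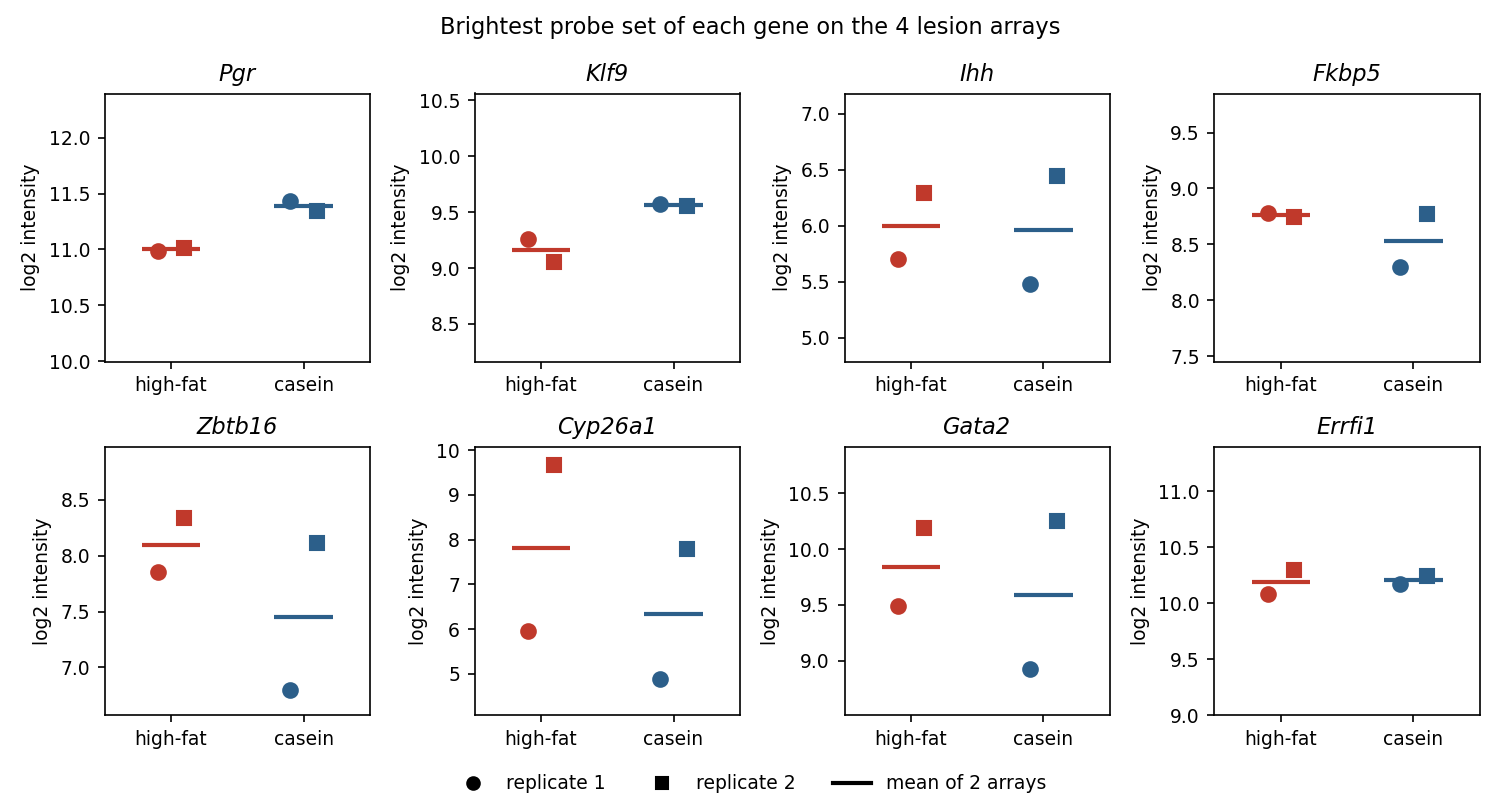
The log2 intensity of the brightest probe set is plotted for each of 8 genes, high-fat diet at the left (red) and casein diet at the right (blue), with circles for replicate 1, squares for replicate 2 and bars for the mean of the 2 arrays. Each axis spans the same range of log2 units except that of Cyp26a1, which is wider; the diets are apart for Pgr and Klf9, and replicate 2 lies above replicate 1 on both diets for Ihh, Zbtb16, Cyp26a1, Gata2 and Errfi1.

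Pgr had intensities of 2032 and 2068 in high-fat diet replicates 1 and 2, against 2761 and 2600.2 in casein diet replicates 1 and 2. Every high-fat diet array was below every casein diet array, and the means were 2050 ± 25.3 and 2680.5 ± 114 (SD, n = 2 each). The log2 difference, high-fat diet minus casein diet, was -0.39 (SE 0.09, 95% interval -0.65 to -0.12, limma unadjusted p = 0.0165, adjusted p = 0.863). It remained between -0.43 and -0.34 when any 1 array was left out. The gastric sum was higher in both casein diet arrays than in either high-fat diet array, so leaving out 1 array does not remove that signal. The spread of Pgr within diets was small, and 11403 of the 12797 tested genes had a larger one.

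The other probe sets of Pgr gave the same picture. The second had 287 and 288 on the high-fat diet and 395 and 416 on the casein diet, a log2 difference of -0.50 (SE 0.09). The third and dimmest had 54.8 and 57.1 on the high-fat diet and 80.7 and 62.7 on the casein diet, a log2 difference of -0.35 (SE 0.16). All 3 were lower without overlap, where 18.2% of all probe sets with 1 symbol were. Probe sets of a gene read the same RNA and are no replicates of the diets. In bulk tissue, fewer receptor-bearing cells and less receptor RNA per cell cannot be told apart.

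Klf9 had intensities of 612 and 532 on the high-fat diet, against 762 and 752 on the casein diet. The 4 arrays again separated by diet, with casein diet replicates closer to each other than those of the high-fat diet. The log2 difference was -0.41 (SE 0.12, 95% interval -0.73 to -0.08, limma unadjusted p = 0.0262, adjusted p = 0.863), and between -0.51 and -0.31 when any 1 array was left out. Of 7 probe sets of Klf9, 5 were lower on the high-fat diet without overlap, among them all 4 above the filter. Of all probe sets with 1 symbol 18.2% were, and those of Klf9 read the same RNA on the same arrays. The second had 528 and 506 on the high-fat diet and 669 and 642 on the casein diet, and the third 439.9 and 451 on the high-fat diet and 568 and 561 on the casein diet. Their log2 differences were both -0.34 (SE 0.10 and 0.09). The 2 that overlapped were the dimmest, with intensities between 9.12 and 10.2 on every array.

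**Figure D2:**
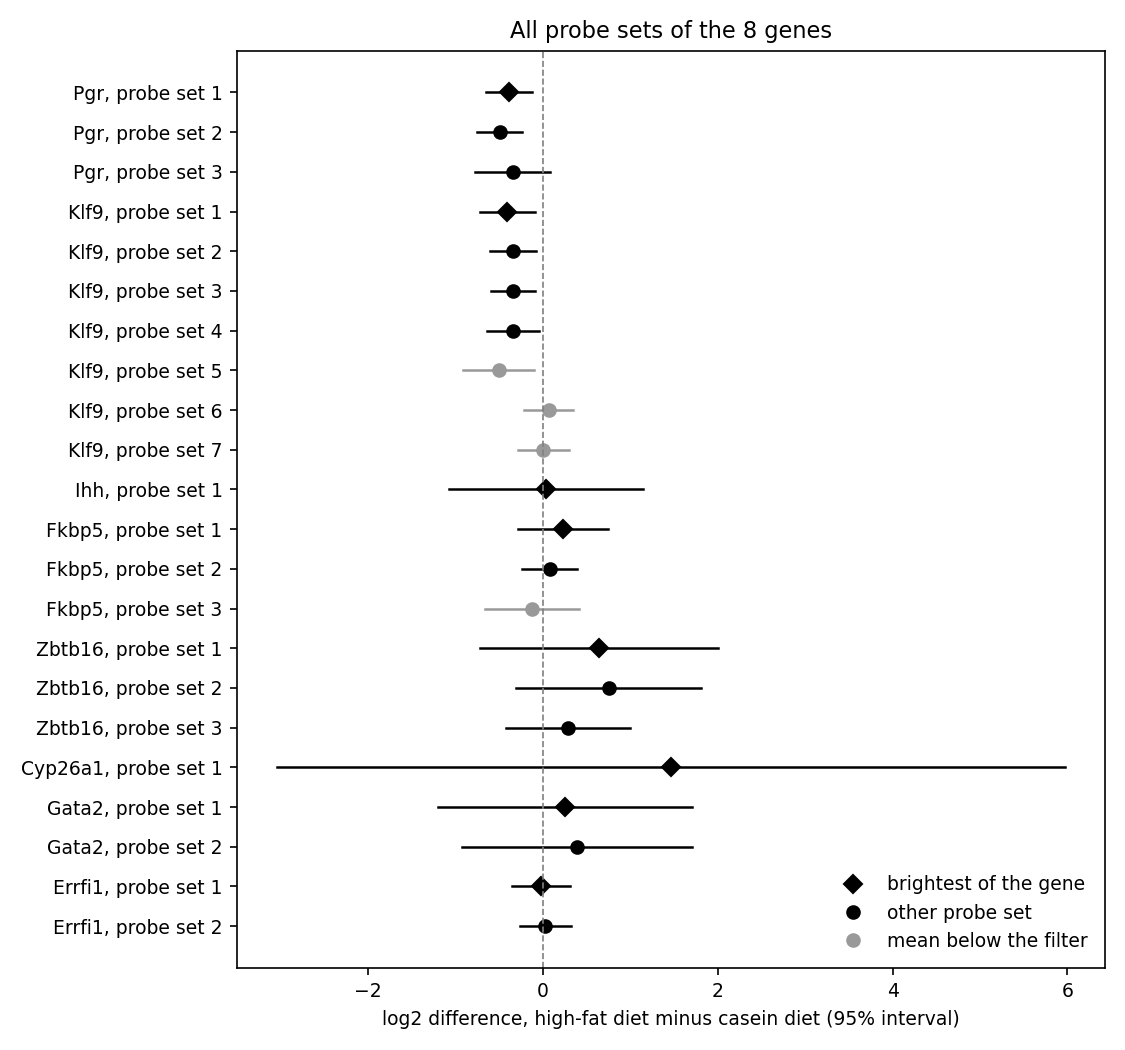
The log2 difference, high-fat diet minus casein diet, is plotted with its 95% interval for all 22 probe sets, numbered within each gene from the brightest to the dimmest; diamonds mark the brightest, and grey marks probe sets with a mean below the filter. All 3 probe sets of Pgr and 5 of 7 of Klf9 lie between -0.51 and -0.34, and the interval of Cyp26a1 runs from -3.05 to 5.98.

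Smooth muscle markers were lower on the high-fat diet along with Pgr and Klf9, as were markers of several other tissues. All 6 markers tested had negative differences and 5 of them did not overlap (median log2 difference -0.90). For this and the marker counts below, 19.3% of all tested genes were lower and 16.6% higher without overlap. Their summed intensity was 15432 and 12859 on the high-fat diet and 21005 and 24955 on the casein diet. Endometrial epithelium markers were lower too, 7 of 7 with a median of -0.78, of which 4 did not overlap. The median was -0.42 and -1.25 when high-fat diet replicate 1 or 2 was left out, and -0.64 and -1.42 when casein diet replicate 1 or 2 was. Their summed intensity was 7753 and 11703 on the high-fat diet and 26449 and 17765 on the casein diet. Of these, keratin genes such as Krt8 are also made by gastric epithelium, and Krt8 had 1080 and 1796 on the high-fat diet and 10009 and 2729 on the casein diet. Ltf had 3940 and 4300 on the high-fat diet and 3833 and 9294 on the casein diet. It was the largest part of the sum in casein diet replicate 2, as Krt8 was in casein diet replicate 1. Of 7 stroma markers, 2 were higher without overlap (Pdgfra by 0.61 and Pdgfrb by 0.59 on the log2 scale) and 1 was lower without overlap (Dcn, -0.11), with a median of 0.06. Gastric mucosa (6 of 6, median -5.93) and intestine markers (3 of 3, median -2.57) were also lower without overlap. So were 2 of 3 mesothelium (median -1.66) and 2 of 3 T cell markers (median -0.29). Higher without overlap were 4 of 4 endothelium (median 0.65), 4 of 7 skeletal muscle (median 3.37) and 1 of 3 macrophage markers (median 0.27). The part of these tissues in the lower values of Pgr and Klf9 was not tested.

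Ihh, the epithelial hedgehog signal, had intensities of 52.2 and 78.6 on the high-fat diet, against 44.6 and 87.3 on the casein diet. Replicate 2 was the higher array on both diets, and the casein diet held both the lowest and the highest value. The log2 difference was 0.04 (SE 0.42, 95% interval -1.16 to 1.23), so a difference of more than 2-fold in either direction lies inside the interval. The level is not far above the filter, and Ihh has 1 probe set.

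Gata2, a zinc-finger factor that acts upstream of Pgr in the mouse uterus and is also made by endothelial and blood-forming cells, had 718 and 1168 on the high-fat diet and 487 and 1219 on the casein diet. The pattern over arrays was that of Ihh, with replicate 2 above replicate 1 by 1.63 times on the high-fat diet and 2.5 times on the casein diet. The log2 difference was 0.25 (SE 0.55), and leaving out casein diet replicate 1 made it -0.41, and leaving out high-fat diet replicate 2 made it -0.10. The second probe set repeated the order of replicates within each diet, with 459 and 643 on the high-fat diet and 267 and 643 on the casein diet.

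Zbtb16, which encodes the repressor PLZF and responds to progesterone and to glucocorticoids, had 231 and 323 on the high-fat diet, against 111 and 276 on the casein diet. The low value was that of casein diet replicate 1 alone. The log2 difference was 0.64 (SE 0.52, limma unadjusted p = 0.285, adjusted p = 0.865), and -0.02 without that array. Its second probe set had 105 and 119 on the high-fat diet and 46.0 and 96.4 on the casein diet. It was the only 1 of the 22 that was higher on the high-fat diet without overlap. Of all tested genes, by their brightest probe set, 16.6% were.

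Fkbp5, an HSP90 co-chaperone that lowers the hormone affinity of steroid receptors and is itself induced by them, had 441 and 429 on the high-fat diet, against 315 and 437 on the casein diet. In this brightest probe set casein diet replicate 1 was low and the other arrays were alike. The log2 difference of 0.23 (SE 0.19) became -0.01 without that array. The second probe set of Fkbp5, which is dim, had 36.9 and 41.4 on the high-fat diet and 38.6 and 35.6 on the casein diet. Casein diet replicate 1 was not low there, and the log2 difference was 0.08 (SE 0.11). The mean of all probe sets of Fkbp5 gave 0.06. Errfi1, an inhibitor of the EGF receptor that mediates part of the uterine response to progesterone in the mouse, had 1082 and 1258 on the high-fat diet and 1156 and 1214 on the casein diet. Its log2 difference was -0.02 (SE 0.12, 95% interval -0.37 to 0.32), the narrowest bound around no change among the 6 overlapping genes. The second probe set of Errfi1 gave 0.03 (SE 0.11).

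Cyp26a1, an enzyme that breaks down retinoic acid and is induced by progesterone in mouse uterine epithelium, varied most. It had 61.8 and 815 on the high-fat diet, against 29.8 and 222 on the casein diet. Replicate 2 exceeded replicate 1 by 13.2 times on the high-fat diet and by 7.46 times on the casein diet, and the highest array was 27.4 times the lowest. Of all tested genes, 29 had a larger spread within diets. The log2 difference of 1.46 (SE 1.71) became 3.32 and -0.40 when high-fat diet replicate 1 or 2 was left out and 0.01 when casein diet replicate 1 was, so its sign depended on single arrays. Akr1c18, whose enzyme inactivates progesterone, was split in the same way, with 33.6 and 454 on the high-fat diet and 45.3 and 399 on the casein diet (log2 difference -0.12, SE 1.78).

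Replicate 2 of the brightest probe set lay above replicate 1 on both diets for 5 of the 8 genes (Ihh, Zbtb16, Cyp26a1, Gata2 and Errfi1). Of all tested genes 26.1% did so. The second probe set of Errfi1 went the other way on the casein diet, with 220.5 and 203.1 in replicates 1 and 2. By the brightest probe set, casein diet replicate 1 was the lowest array for 5 of the 8 (Ihh, Fkbp5, Zbtb16, Cyp26a1 and Gata2). It was the lowest for 34.5% of all tested genes. The labels do not say whether equal numbers share a litter, day or batch. The intensities of gastric markers were highest in casein diet replicate 1 and those of skeletal muscle in high-fat diet replicate 1, the arrays in which Ihh, Cyp26a1 and Gata2 were low. The part of that tissue in these values was not tested.

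**Figure D3:**
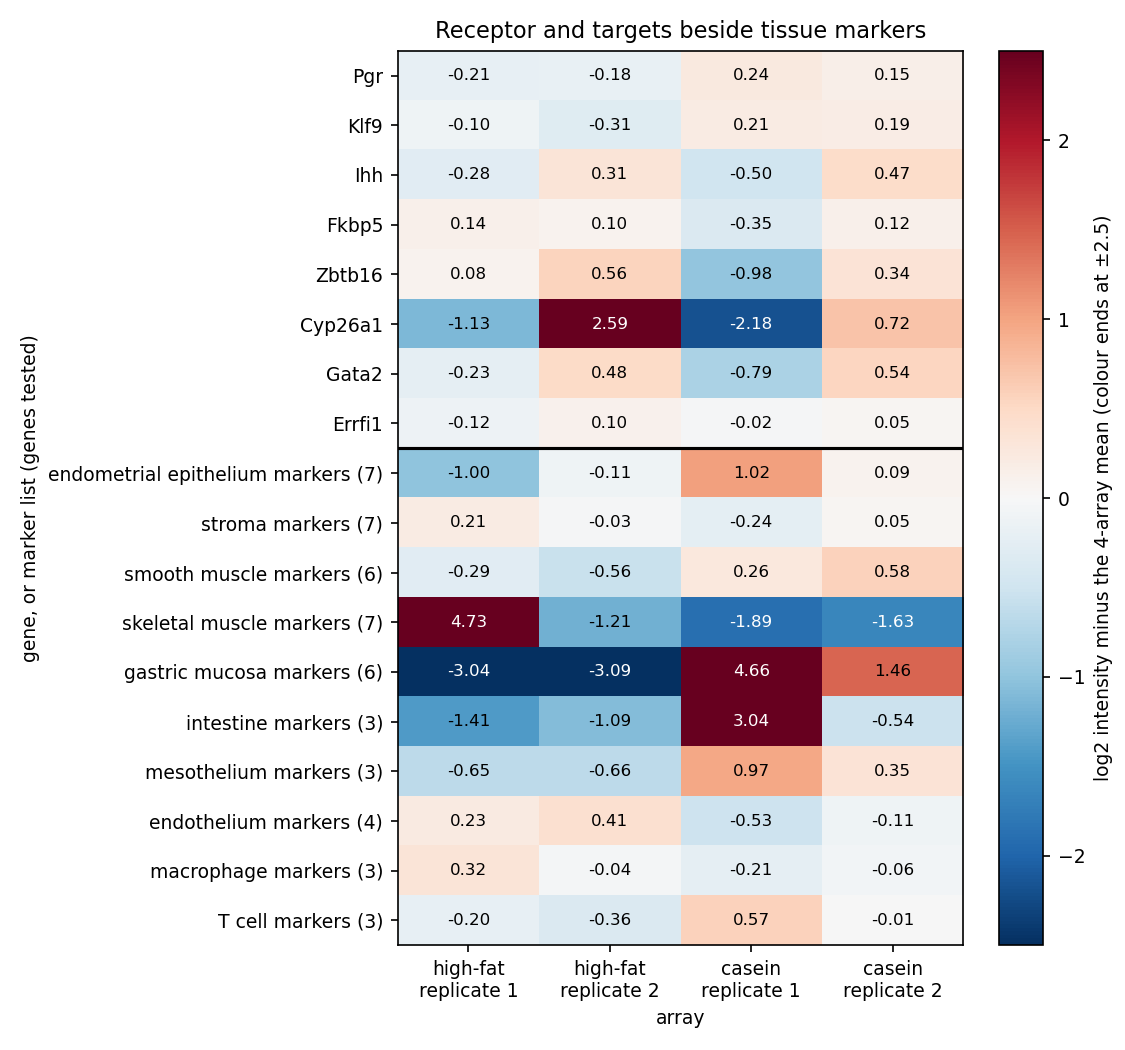
Each cell gives the log2 intensity minus the 4-array mean, for the 8 genes above the line and as a mean over the tested genes of each marker list below it (number of genes in brackets), with high-fat diet arrays at the left and casein diet arrays at the right. Pgr and Klf9 are negative in both high-fat diet arrays, Cyp26a1 runs from -2.18 to 2.59, and gastric markers reach 4.66 in casein diet replicate 1.

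Other genes of the pathway were taken by role, and limma's adjusted test called 0 in any group, so these genes are given as values. Among receptor chaperones and coregulators 7 of 8 tested genes had negative differences, 4 of them without overlap, against 19.3% of all tested genes that were lower without overlap. The median was -0.12, against -0.0051 for all tested genes, and 1 gene had an unadjusted p under 0.05, against 4.97% of all. Of 12 genes listed, 4 had no probe set of that symbol alone, Hsp90ab1 and Ptges3 among them. The HSP90 chaperones that were measured lay at the lower end. Stip1, which passes clients to HSP90, had 222 and 209 on the high-fat diet and 339 and 275 on the casein diet, a log2 difference of -0.50 (SE 0.14). Fkbp4, the co-chaperone that the uterine receptor needs for full activity in the mouse, had 349.7 and 470.4 on the high-fat diet and 604 and 520.3 on the casein diet (-0.47, SE 0.19). Its value became -0.25 and -0.68 when high-fat diet replicate 1 or 2 was left out, and -0.255 with the mean of all its probe sets. Hsp90aa1 itself differed by -0.29 (SE 0.11). The coactivators Ncoa1 and Ncoa2 differed by -0.02 (SE 0.11) and 0.11 (SE 0.12).

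Among 20 other uterine progesterone pathway genes 13 were higher, 7 of them without overlap, and 7 were lower, 3 of them without overlap, with a median of 0.52 and 4 genes with an unadjusted p under 0.05. Of all tested genes 16.6% were higher and 19.3% lower without overlap, and 4.97% had such a p. Casein diet replicate 1 was the lowest array for 13 of the 20, and without it the median was -0.0045. The stromal end of the hedgehog route showed this. Ptch1, the Ihh receptor and itself a target of the signal, had 1004 and 1198 on the high-fat diet and 349 and 895 on the casein diet (log2 difference 0.97, SE 0.51, and 0.29 without casein diet replicate 1). Gli1, its transcription factor, had 194 and 195 on the high-fat diet and 75.5 and 201 on the casein diet (0.66, or -0.05 without that array). Nr2f2 and Hand2 differed by 0.48 (SE 0.27) and 0.73 (SE 0.35), or by 0.14 and 0.29 without it. Bmp2, a signal of decidual change, differed by -0.59 (SE 0.54), or by 0.11 without it. With the mean of all probe sets of a gene, the log2 difference was 0.65 for Ptch1, 0.34 for Nr2f2 and 0.36 for Hand2.

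Ptch1, Nr2f2 and Hand2 kept their direction without casein diet replicate 1, and so did other genes of this group. Egfr, the receptor that Errfi1 inhibits, had 438 and 445 on the high-fat diet and 262 and 301 on the casein diet (log2 difference 0.65, SE 0.11, limma unadjusted p = 0.0055, adjusted p = 0.856, and 0.55 without that array). The mean of all its probe sets gave 0.22. Muc1, an apical mucin of uterine and gastric epithelium, had 255 and 241 on the high-fat diet and 747 and 506 on the casein diet (-1.31, SE 0.22, and -1.03 without that array). Leaving it out does not remove the gastric signal, as the gastric marker sum of casein diet replicate 2 was 9897, against 336 and 351 on the high-fat diet. Il13ra2, a decoy receptor, and Fst, the activin antagonist follistatin, are named because of their values. Il13ra2 had 370 and 261 on the high-fat diet and 31.9 and 118 on the casein diet (2.34, SE 0.71, and 1.40 without that array). Fst had 375 and 590 on the high-fat diet and 99.995 and 238 on the casein diet (1.61, SE 0.52, and 0.98 without it).

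**Figure D4:**
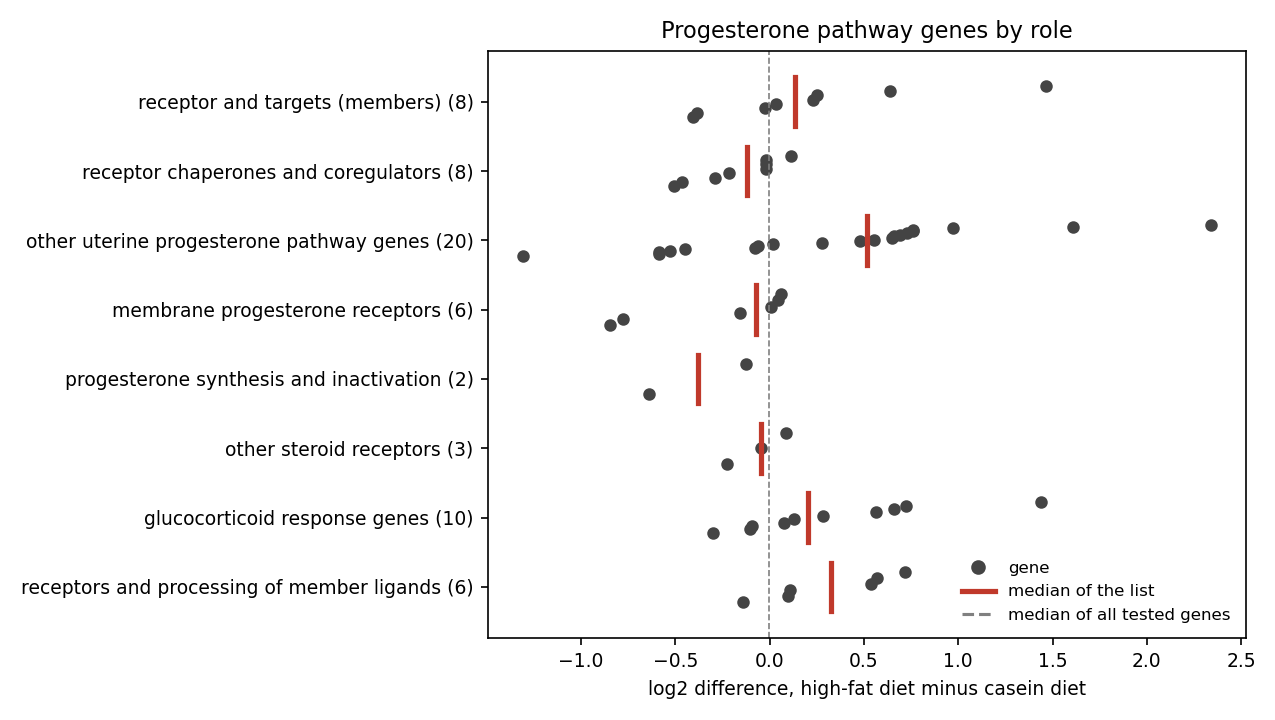
Each point is the log2 difference of 1 tested gene, high-fat diet minus casein diet, grouped by role with the number of tested genes in brackets; red bars are list medians, and the dashed line is the median of all tested genes (-0.0051). The other uterine pathway genes run from -1.31 to 2.34 with a median of 0.52, and chaperones and coregulators have a median of -0.12.

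Glucocorticoid response genes were examined because Fkbp5, Zbtb16, Klf9 and Errfi1 also respond to glucocorticoids. Of 10, 7 were higher and 3 lower, with a median of 0.20, or -0.02 without casein diet replicate 1, and 1 had an unadjusted p under 0.05, against 4.97% of all genes. Tsc22d3, the classical glucocorticoid-induced leucine zipper gene, had 785 and 918 on the high-fat diet and 569.8 and 854 on the casein diet (0.28, SE 0.24, and -0.01 without that array). Dusp1, a phosphatase that restrains MAP kinases, differed by -0.30 (SE 0.10), with 585 and 577 on the high-fat diet and 692 and 739 on the casein diet. Hsd11b1, which regenerates active glucocorticoid, differed by 1.44 (SE 0.79), which became 2.41 and 0.46 when high-fat diet replicate 1 or 2 was left out. The glucocorticoid receptor gene Nr3c1 differed by 0.09 (SE 0.09) and the mineralocorticoid receptor gene Nr3c2 by -0.23 (SE 0.24). Esr1, the estrogen receptor, through which Pgr is induced in the uterus, had 3319 and 4046 on the high-fat diet and 3800 and 3775 on the casein diet, a log2 difference of -0.05 (SE 0.14), or 0.10 without high-fat diet replicate 1.

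Membrane progesterone receptors were divided, 3 higher and 3 lower of 6 tested (median -0.07). Pgrmc1 differed by 0.06 (SE 0.15), Paqr7 by -0.15 (SE 0.12) and Paqr8 by -0.84 (SE 0.45), the last with 207 in casein diet replicate 1 and -0.23 without it. Of genes of progesterone synthesis and inactivation only Star and Akr1c18 were tested, and Star, the cholesterol carrier of steroidogenesis, differed by -0.64 (SE 0.39), which became -1.11 and -0.17 when high-fat diet replicate 1 or 2 was left out. Receptors for the peptides of Calca were measured although Calca was not. Calcrl and Ramp1, which together form the receptor for its peptide CGRP, differed by 0.54 (SE 0.25) and 0.72 (SE 0.36), or by 0.26 and 0.24 without casein diet replicate 1. That array was the lowest for both, and for all 4 endothelium markers tested (34.5% of all tested genes). These 4 markers were also higher without overlap, where 16.6% of all tested genes were. The part of tissue content in the values of Calcrl and Ramp1 was not tested.

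The 3 genes nearest to Pgr in pattern, by Euclidean distance of log2 values centred on each gene over the 4 arrays, were Tmem200a (0.05), Pygb (0.05) and Nt5c2 (0.06). Their log2 differences were -0.42, -0.41 and -0.40. Klf9 was not among the nearest: 176 other tested genes lay as near to Pgr as Klf9 did or nearer. Over 4 arrays this likeness is a description only.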

How the data were processed

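Probe set intensity values were deposited by the authors on a linear scale, already normalised between arrays. The submitters' processing notes name GCOS and RMA, without version or order, and how linear values were reached is not given in the sources used. No detection call, scan date or slide was available. Log2 was taken with no pseudocount. Of 45101 probe sets, 64 were controls, 34945 had 1 gene symbol, 932 several and 9160 none. The probe set with the highest mean log2 value stood for a gene, and genes from the 40th percentile of probe sets upward, controls left out, were tested. High-fat diet was set against casein diet with limma 3.58.1 in R 4.3.3 (lmFit, eBayes, two-sided), and p-values were adjusted by Benjamini-Hochberg over every gene tested. With 2 arrays against 2 the smallest exact permutation p is 0.333, which is above the threshold, and no permutation test was run. The number of arrays limits the precision.

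Members and gene lists were chosen with earlier results of these data known. Named were all members, a fixed set of pathway genes, the 2 genes of each pathway list with the smallest p, and the 3 nearest to Pgr. Il13ra2, Fst, Esr1, Hoxa10, Krt8, Pdgfra, Pdgfrb and Dcn fall outside this rule and were chosen after their values were seen. The fit was also run on simulated data with planted changes, the outcome of which is not reported here. Intervals of single probe sets come from a fit of all probe sets. Besides smooth muscle, endometrial epithelium and stroma, median log2 differences of marker lists were -5.93 (gastric), -2.57 (intestine), -1.66 (mesothelium), -0.29 (T cell), -0.24 (mast cell) and -0.10 (ovary). Those above zero were 0.27 (macrophage), 0.65 (endothelium), 0.79 (adipocyte) and 3.37 (skeletal muscle), and 0 nerve markers were tested. The mast cell, ovary and adipocyte medians rest on 2 tested genes each. The skeletal muscle median was 0.38 without high-fat diet replicate 1. That of intestine was -0.68 without casein diet replicate 1. Figures were drawn with matplotlib 3.10.9.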

Additional observations from a re-analysis of the deposited data

How the results depend on the processing

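The number of genes past the threshold was 0 under all alternatives run except 1. Without casein diet replicate 2, where casein diet replicate 1 stands alone for its diet and is assumed to vary like the others, 17 genes passed, none of them a member, so the range over arrays left out was 0 to 17. Unadjusted, 636 genes had a p under 0.05 in limma's test, and between 431 and 1825 did with 1 array left out. With the replicate number as a block, 0 genes and 0 members passed, 576 genes and 3 members had an unadjusted p under 0.05 (Pgr 0.0464, Klf9 0.0482 and Cyp26a1 0.0143, its log2 difference of 1.464 having an SE of 0.268 and an adjusted p of 0.911), and no call changed. Deviations of equal-numbered arrays correlated at -0.022 across genes, and no label pairs them. Pgr lay between -0.43 and -0.34 and Klf9 between -0.51 and -0.27 under every alternative, with adjusted p from 0.31 to 1 and from 0.388 to 1.

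Of 513 values of 43 named genes under 12 alternatives, 24 changed sign, in 16 genes, 6 of them members; the cause was not tested. With 1 array left out, the lowest and highest values of those genes were -0.447 and 0.520 for Ihh, -0.006 and 0.467 for Fkbp5, -0.017 and 1.298 for Zbtb16, -0.396 and 3.324 for Cyp26a1, -0.413 and 0.911 for Gata2, -0.131 and 0.087 for Errfi1, -0.100 and 0.057 for Ncoa1, -1.280 and 0.107 for Bmp2, -0.048 and 1.365 for Gli1, -0.010 and 0.575 for Tsc22d3, -0.092 and 0.214 for Pgrmc1, -2.001 and 1.754 for Akr1c18, -0.529 and 0.079 for Nr3c2, and -0.191 and 0.095 for Esr1. Casein diet replicate 1 was the array behind a changed sign for Ihh, Fkbp5, Zbtb16, Gata2, Bmp2, Gli1, Tsc22d3, Pgrmc1 and Nr3c2. High-fat diet replicate 2 was so for Ihh (-0.259), Cyp26a1 and Gata2 (-0.102), high-fat diet replicate 1 for Errfi1, Ncoa1, Akr1c18 and Esr1, and casein diet replicate 2 for Errfi1 (0.014), Ncoa1 (0.017) and Akr1c18 (1.445). With the mean of all probe sets the sign changed for Errfi1 (0.002), Ncoa1 (0.071), Ncoa2 (-0.001) and Nr3c1 (-0.029), and with quantile normalisation for Errfi1 (0.001). Without detection calls, how far a dim probe set lies above background is unknown.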
